A study of Mus musculus with 44 samples.

Results

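The 4 plates of days 2 and 3 of RANKL+CSRM617 were compared with the 2 plates of day 1 in organoids of the mouse small intestine. RANKL, a cytokine of the TNF family, makes intestinal cells become M cells, and CSRM617 is a small molecule described as an inhibitor of the transcription factor ONECUT2. The 6 plates, 2 for each day, were 6 of the 14 of this arm and of the 44 of the series, and were chosen by their labels alone. After wells under 1000 UMIs (unique molecular identifiers, 1 for each captured RNA molecule) were left out, they held 985 cells, 415 of day 1 and 570 of days 2 and 3, of the 1673 kept cells of the arm. All organoids came from 1 line of a female Lgr5GFPDTR/+ mouse, with GFP and the diphtheria toxin receptor knocked into 1 of its Lgr5 alleles. Before the treatment they had all received 3 µM CHIR99021, an inhibitor of GSK3, with 1.5 mM valproic acid for 3 days and then 1 day of ENR, the culture medium with EGF, Noggin and R-spondin. Both RANKL (100 ng/mL) and CSRM617 Hydrochloride (40 µM) were present on days 1, 2 and 3, and medium was renewed every 3 days. A change from day 1 therefore joins RANKL, the inhibitor and the time since the earlier medium, which cannot be told apart within this arm. The parallel RANKL arm, 3 plates a day without the inhibitor, is used at the end for the same change.

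M cells (microfold cells) lie in the epithelium over lymphoid follicles and carry particles and microbes from the gut lumen to immune cells below. RANKL acts through its receptor RANK and NF-kappaB on crypt cells, which then express the Ets factor SPIB and the genes of mature M cells. In the same epithelium, stem cells at the crypt base divide under Wnt and EGF signals, and their progeny stop dividing and become absorptive enterocytes or secretory cells as they move toward the villus, where BMP signalling is higher.

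Plates had 92 to 223 kept cells, 324061 to 835772 UMIs and a median of 2207 to 3685 UMIs per cell. The 2 plates of day 3 had the fewest cells, 92 and 103. Same-day plates were further apart than UMI counting alone would make them, the chi-square per gene being between 7.52 and 10.3. Whether same-day plates hold separate cultures is not in the labels, and every p-value rests on plate-to-plate spread that could be technical. Sorting used light scatter only, so cells of any type could enter, and a change in a summed level cannot tell fewer cells of a type from less RNA per cell. The 9 genes of epithelial identity, such as Epcam and Cdh1, summed to 3989 to 4812 CPM (UMI counts scaled to a common library size, with TMM) in every plate. Of 18 immune markers 1 was in the table, at no more than 3.66 CPM, and of 17 mesenchymal and endothelial markers 3 were, at a sum of no more than 17.2 CPM.

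Between day 1 and days 2 and 3, most tested M cell genes rose while most tested crypt stem cell, replication and mitosis genes fell, and on day 3 many enterocyte genes were higher as well. Of 6499 genes tested with edgeR's quasi-likelihood test, 1032 passed (15.9%), 529 higher (8.14%) and 503 lower (7.74%) on days 2 and 3. The median log2 fold change over all genes was −0.04, and changes below are log2 fold changes of days 2 and 3 against day 1 from this test unless another contrast is named. The mean of days 2 and 3 hides a difference between them. Against day 1, 363 genes passed on day 2 (5.59%) and 1076 on day 3 (16.6%, 9.31% higher and 7.25% lower), the same 2 plates of day 1 serving both. Day 3 against day 2 gave 113 genes (1.74%), 102 higher (1.57%) and 11 lower (0.169%). The number of calls was 390 without the first plate of day 1, 552 without the second, 672 without the second plate of day 3 and 391 with cells thinned to equal weight.

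**Figure D1:**
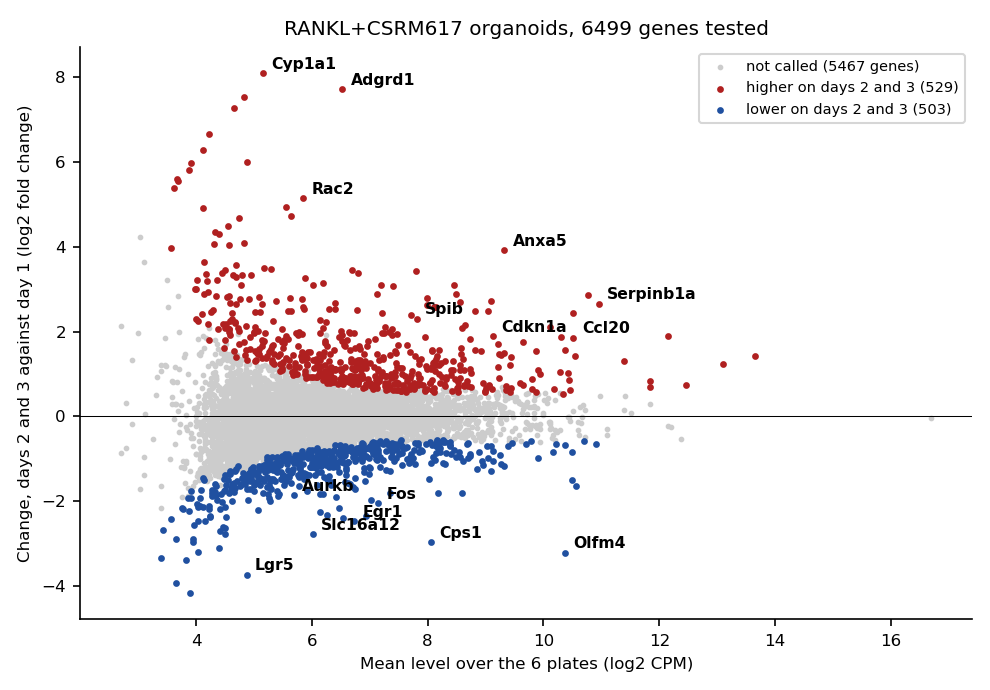
Change from day 1 to days 2 and 3 (y axis, log2 fold change) against mean level (x axis, log2 CPM) for the 6499 genes tested, with the 529 genes that rose in red, the 503 that fell in blue and others in grey. Anxa5 and Serpinb1a stand out among abundant genes that rose and Olfm4 and Cps1 among those that fell.

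M cell genes rose together, and much of the rise was there on day 2. Their summed level over the 14 of 22 list members in the table was 1716 and 1418 CPM on day 1, 7236 and 7348 on day 2 and 8504 and 12047 on day 3, the mean being 5.61-fold higher on days 2 and 3. Every plate of days 2 and 3 lay above both plates of day 1. Single genes whose plates do not overlap in this way were 35.3% of all tested, 16.2% higher and 19.1% lower. Of the 11 members tested 10 rose and none fell, with a median log2 fold change of 2.66. The filter on low counts let a gene in through the days on which it is high, so these 11 are not the whole list. The list was also drawn up with earlier results of these data known, so its counts are a description and not a test. Sox8 and Esrrg, both regulators of late M cells, and Aif1 were below the filter, and the late marker Gp2 was not analysed here. On day 2 alone 8 of the 11 were above day 1 (all genes, 3.09% higher), and 1 rose further from day 2 to day 3.

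Spib (chr7:44525993-44532071, minus strand, GRCm38), the Ets factor that M cells need to form, was at 88.7 and 64 CPM on day 1, 284 and 448 on day 2 and 289 and 513 on day 3. All 4 later plates lay above day 1, the second plate of each later day being the higher one, and day 3 against day 2 had 0.12 ± 0.34 (SE, adjusted p = 0.948) on the log2 scale. The log2 fold change was 2.31 ± 0.34 (SE, adjusted p = 5.23e-05). Anxa5, an annexin that binds phosphatidylserine, was at 112 and 95.1 CPM on day 1, 1632 and 1345 on day 2 and 1218 and 2192 on day 3. Its log2 fold change was 3.93 ± 0.28 (SE, adjusted p = 1.87e-09), and the plates of days 2 and 3 overlapped. Serpinb1a, an inhibitor of neutrophil serine proteases, was at 593 and 574 CPM on day 1, 3106 and 3329 on day 2 and 3376 and 5099.5 on day 3. All 4 later plates lay far above both plates of day 1, and the log2 fold change was 2.66 ± 0.27 (SE, adjusted p = 2.49e-07) over both days. Ccl9, which encodes a CC chemokine made over follicles, was at 48 and 29.3 CPM on day 1, 212 and 241 on day 2 and 327 and 701 on day 3. The second plate of day 3 was the highest for Ccl9, as it was for Spib, Anxa5 and Serpinb1a, and the log2 fold change was 3.08 ± 0.35 (SE, adjusted p = 1.61e-06). H2-M2, one of the nonclassical class I genes, was at 34.4 and 34.8 CPM on day 1, 209.5 and 180.1 on day 2 and 427 and 261 on day 3, with a log2 fold change of 2.88 ± 0.30 (SE, adjusted p = 6.28e-07). For H2-M2 the first plate of day 3 was the highest. Adgrd1, an adhesion G protein-coupled receptor, went from 2 UMIs in both plates of day 1 together to 634 in the 4 later plates, a ratio of 252 (counting interval 69.4 to 2084 at 95%). It was at 2.09 and 0 CPM on day 1, 217 and 171 on day 2 and 623 and 653 on day 3, and here day 3 was above day 2 in both plates. Cxcl16, a chemokine that is also made by other epithelial cells, was the member tested that did not pass.

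**Figure D2:**
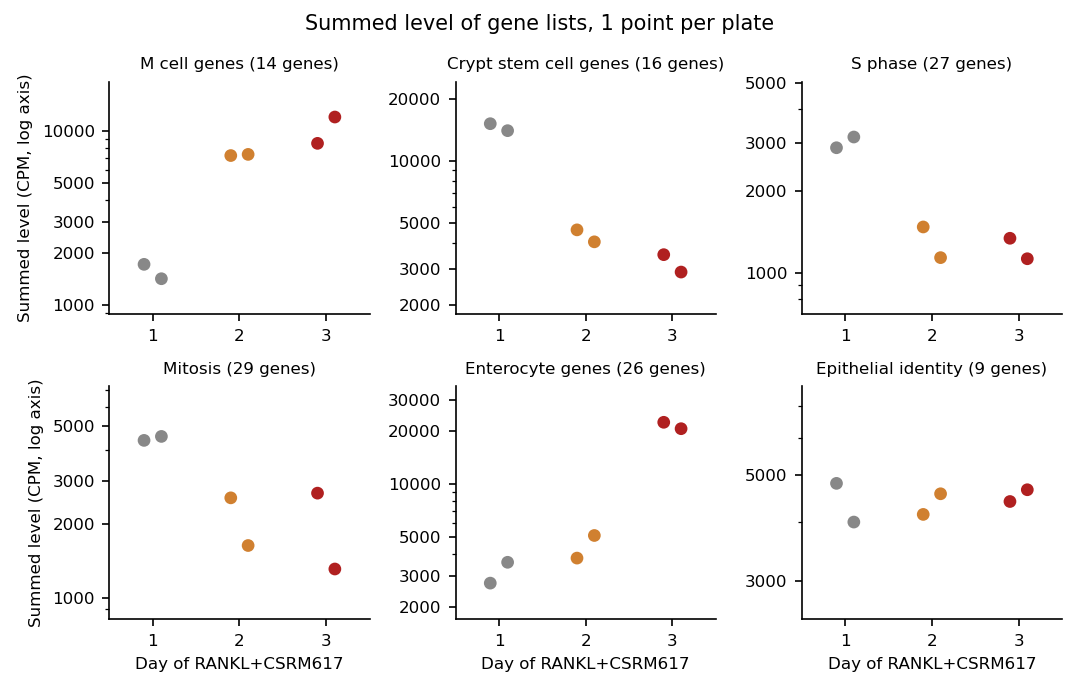
Summed level of 6 gene lists (y axes, CPM, log scale) on days 1, 2 and 3 of RANKL+CSRM617, 1 point per plate. M cell genes were higher from day 2, crypt stem cell, S phase and mitosis genes lower from day 2, enterocyte genes highest on day 3, and epithelial identity genes stayed between 3989 and 4812 CPM.

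The receptor and signalling genes of the pathway had few calls at the RNA level. Tnfrsf11a, which encodes RANK, was at 185 and 192 CPM on day 1, 233 and 215 on day 2 and 299 and 231 on day 3. Later plates were all above day 1, by less than the test needs at a log2 fold change of 0.37 ± 0.20 (SE, adjusted p = 0.227). Of 22 tested genes of RANK and NF-kappaB signalling 1 passed, Tnip1, an adaptor that restrains the pathway, and its call was lost without either plate of day 1. The list's median was 0.21 against −0.04 for all genes. Nfkbia, the inhibitor that NF-kappaB itself induces, had 1237 to 1486 CPM over the 6 plates and a log2 fold change of -0.02 ± 0.18 (SE). Relb and Nfkb2, of the noncanonical branch through which RANK acts, had 0.47 ± 0.35 and 0.07 ± 0.27, and neither passed. Onecut2, the gene of the factor that CSRM617 is meant to inhibit, was at 527 and 633 CPM on day 1, 1099 and 973 on day 2 and 1479.8 and 1445 on day 3. It rose by 1.09 ± 0.19 (SE, adjusted p = 0.000367), with no overlap between plates of day 1 and later days, and RNA does not measure the inhibition of the protein.

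Among 8 tested NF-kappaB targets and chemokines 3 rose and 3 fell. Ccl20, the chemokine that draws CCR6-bearing immune cells to the epithelium over follicles, was at 606 and 633 CPM on day 1, 1427 and 1163 on day 2 and 3775 and 4031 on day 3. The 2 plates of each day were close, and the level on day 3 was above that on day 2, with a log2 fold change of 1.86 ± 0.28 (SE, adjusted p = 6.58e-05) over both days. Day 3 against day 2 gave 1.59 ± 0.30 (SE, adjusted p = 0.00497), which did not pass without the second plate of day 2 (adjusted p = 0.0681) or of day 3 (adjusted p = 0.0628). Ubd, a ubiquitin-like modifier induced by cytokines, was at 8.35 and 18.3 CPM on day 1, 27.9 and 20 on day 2 and 227 and 194 on day 3, with day 3 apart from the other days. The difference of day 3 from day 2 was 3.17 ± 0.40 (SE, adjusted p = 5.63e-05) on the log2 scale. Pigr, the receptor that carries IgA across the epithelium, fell from 599 and 723 CPM on day 1 to 155 to 218 on the later plates, a change of -1.82 ± 0.21 (SE, adjusted p = 2.34e-06). Tnf fell as well, at 40.7 and 58.5 CPM on day 1, 34.9 and 20 on day 2 and 3.44 and 0 on day 3, and its call was lost with both later days as 1 group (adjusted p = 0.0861).

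Crypt stem cell genes fell, and most of the fall was there on day 2. The list summed to 15149 and 14018 CPM on day 1, 4643 and 4063 on day 2 and 3522 and 2902 on day 3, a ratio of 0.259. Of 15 members tested 11 fell and none rose, with a median of −1.24. Lgr5 (chr10:115450311-115587780), the R-spondin receptor that marks crypt base stem cells, was at 124 and 123 CPM on day 1, 9.31 and 14.1 on day 2 and 6.88 and 6.07 on day 3. The change, -3.74 ± 0.33 (SE, adjusted p = 7.9e-08), left it under 15 CPM in all later plates, and counts of the wild-type and knock-in alleles were not separated. Olfm4, a secreted stem cell marker, was at 6447 and 5504 CPM on day 1, 866 and 753 on day 2 and 685 and 337 on day 3, a change of -3.22 ± 0.28 (SE, adjusted p = 3.33e-08). The second plate of day 3 was the lowest for Olfm4. Smoc2, a matricellular stem cell marker, fell by 2.36 ± 0.24 (SE, adjusted p = 2.49e-07), and Rgmb, a BMP co-receptor of crypt cells, fell by 2.27 ± 0.29 (SE, adjusted p = 5.08e-06). Sox9, a factor of crypt progenitors, went from 798 and 825 CPM to 273 to 419, a change of -1.24 ± 0.19 (SE, adjusted p = 6.84e-05). Rnf43, Znrf3 and Axin2, feedback regulators in Wnt signalling, and Prom1 did not pass. Even so, 0 of the 15 tested members had a positive log2 fold change. Of the 15, 14 were lower in every later plate than in both plates of day 1 (all genes, 19.1% lower). Among 12 tested Wnt targets 7 fell and none rose, 0 had a positive change and 10 were lower without overlap. Several of these targets are the same stem cell genes. Cd44, an adhesion receptor of crypt cells that Wnt induces, was at 541 and 498 CPM on day 1, 342 and 286 on day 2 and 203 and 164 on day 3, and its change was -1.12 ± 0.20 (SE, adjusted p = 0.000336).

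Replication and mitosis genes fell, their summed levels to 0.42 and 0.458 of those on day 1. Of 22 tested genes of DNA replication and S phase 16 fell and none rose, with a median of −1.29, and of 27 tested mitosis genes 22 fell and none rose, with a median of −1.22. The S phase list summed to 2882 and 3157 CPM on day 1, 1474 and 1137 on day 2 and 1339 and 1126 on day 3, and the mitosis list to 4383 and 4549 CPM on day 1, 2557 and 1635 on day 2 and 2672 and 1311 on day 3. Days 2 and 3 overlapped for both lists, and the first plate of each later day had more mitosis RNA than the second. No gene of either list passed between days 2 and 3. The counts move with single plates: without the first plate of day 1, 8 S phase and 10 mitosis genes passed, without the second plate of day 3, 14 and 9, and the medians stayed between −0.99 and −1.49 under all alternatives. Rrm2, the ribonucleotide reductase subunit made in S phase, was at 208 and 245 CPM on day 1, 74.5 and 67.1 on day 2 and 79.2 and 54.6 on day 3, a change of -1.72 ± 0.26 (SE, adjusted p = 6.47e-05). Aurkb, the kinase of the chromosomal passenger complex, was at 108 and 108 CPM on day 1, 32.6 and 23.5 on day 2 and 44.7 and 21.2 on day 3, a change of -1.86 ± 0.33 (SE, adjusted p = 0.000372). Bub1, a kinase of the spindle checkpoint, fell by 1.71 ± 0.32 (SE, adjusted p = 0.000633). Mki67, a marker of cycling cells, was at 250.4 and 304 CPM on day 1, 135 and 108 on day 2 and 199.6 and 94.1 on day 3. Its change of -1.06 ± 0.30 (SE, adjusted p = 0.0182) did not pass without either plate of day 1, without the second plate of day 2 or of day 3, or with DESeq2 (highest adjusted p = 0.131).

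Promoters of mitosis genes are shown because these genes fell together. A pair of short motifs is known from such promoters: TTTGAA, the core of the cell cycle genes homology region that the DREAM and MuvB complexes bind, and CCAAT, the box of the factor NF-Y. Of the 22 mitosis genes that fell, 19 had a promoter in the RefSeq table, and 14 of these held TTTGAA on either strand, against 17.89% of all promoters. CCAAT was in 15 of the 19, against 37.41%. For the S phase genes that fell, 13 of 16 had a promoter, 1 of them with TTTGAA and 11 with CCAAT. These are matches of letters and not sites of binding. Mitosis genes that did not fall were not counted, so whether the motifs go with the fall was not tested. Cdk1, the kinase that drives entry into mitosis, and Ccnb2, one of its cyclins, were chosen after their values were seen, with Cdc20, an activator of the anaphase-promoting complex, since each holds both motifs. Cdk1 was at 270.2 and 315 CPM on day 1, 172 and 74.2 on day 2 and 145 and 97.1 on day 3, a change of -1.3 ± 0.25 (SE, adjusted p = 0.000885), and Ccnb2 changed by -1.22 ± 0.24 (SE, adjusted p = 0.00116). Cdc20 changed by -1.88 ± 0.57 (SE, adjusted p = 0.0254), which did not pass without the first plate of day 1, the second of day 2, or either of day 3, or with DESeq2 (highest adjusted p = 0.297). Capitals mark TTTGAA and CCAAT, or the latter as ATTGG where it is on the other strand. The windows are chr10:69352863-69353162 for Cdk1, chr9:70421505-70421804 for Ccnb2 and chr4:118437294-118437593 for Cdc20, all on the minus strand of GRCm38.p6 and written 5′ to 3′ along the gene.
Cdk1: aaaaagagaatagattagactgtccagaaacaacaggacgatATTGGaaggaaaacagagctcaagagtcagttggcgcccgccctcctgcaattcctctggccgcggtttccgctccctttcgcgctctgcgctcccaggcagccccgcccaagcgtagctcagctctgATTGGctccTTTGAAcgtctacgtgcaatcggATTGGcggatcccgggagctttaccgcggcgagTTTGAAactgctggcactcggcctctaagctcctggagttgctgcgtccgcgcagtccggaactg
Ccnb2: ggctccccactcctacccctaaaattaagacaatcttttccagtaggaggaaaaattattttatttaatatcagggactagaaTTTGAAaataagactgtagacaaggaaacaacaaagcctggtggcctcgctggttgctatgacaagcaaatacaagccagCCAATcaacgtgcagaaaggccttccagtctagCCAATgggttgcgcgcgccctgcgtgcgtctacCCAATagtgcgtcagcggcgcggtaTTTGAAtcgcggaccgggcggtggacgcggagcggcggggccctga
Cdc20: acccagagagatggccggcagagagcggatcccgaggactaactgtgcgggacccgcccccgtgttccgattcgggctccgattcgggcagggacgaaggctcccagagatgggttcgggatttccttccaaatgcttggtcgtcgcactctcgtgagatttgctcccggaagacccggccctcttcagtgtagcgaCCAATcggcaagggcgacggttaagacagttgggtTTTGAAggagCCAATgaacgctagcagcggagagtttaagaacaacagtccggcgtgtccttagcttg

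Cdkn1a, the p21 inhibitor of cyclin-dependent kinases, was at 172 and 300.00 CPM on day 1, 568 and 611 on day 2 and 1081 and 1442 on day 3. The days did not overlap, and the change of days 2 and 3 from day 1 was 1.89 ± 0.24 (SE, adjusted p = 5.25e-06). Cdkn2b, the p15 inhibitor of CDK4 and CDK6, was at 86.6 and 123 CPM on day 1, 275 and 314 on day 2 and 434 and 516 on day 3, a rise of 1.86 ± 0.24 (SE, adjusted p = 6.26e-06). Cdk6 fell by 0.97 ± 0.20 (SE, adjusted p = 0.00139). Of 13 tested G1 cyclins and inhibitors 2 rose and 2 fell. Mxd1, a partner of MAX that opposes MYC, was at 13.6 and 16.5 CPM on day 1, 79.2 and 61.2 on day 2 and 209.9 and 304 on day 3, one of the 12 largest rises at 3.15 ± 0.37 (SE, adjusted p = 2.37e-06). Among 21 tested genes of ribosome biogenesis and the MYC family 9 fell and 1 rose, with a median of −0.84, but 0 of the 9 passed on day 2 alone. Of 19 tested p53 targets and apoptosis genes 5 rose and 1 fell. Zmat3, an RNA-binding p53 target, rose by 1.58 ± 0.24 (SE, adjusted p = 6.66e-05).

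Immediate early genes, which growth signals and dissociation of tissue switch on within minutes, were lower on the later days. Of 19 tested 9 fell and 1 rose, with a median of −0.73. Fos, a subunit of AP-1, was at 384 and 307 CPM on day 1, 119 and 107 on day 2 and 65.4 and 60.7 on day 3, a change of -2.04 ± 0.26 (SE, adjusted p = 5.45e-06). Jun, its partner, fell by 2.4 ± 0.24 (SE, adjusted p = 2.79e-07), and Egr1, a zinc finger factor of the same response, fell by 2.48 ± 0.25 (SE, adjusted p = 2.63e-07). All 3 were lower in each of the 4 later plates than in both plates of day 1. Junb, Jund, Klf6, Zfp36 and Dusp1 of the same list did not pass. Of 13 tested EGF ligands, receptors and feedback genes 3 fell and none rose. Hbegf, a ligand of the EGF receptor, was at 57.4 and 54.9 CPM on day 1, 6.98 and 15.3 on day 2 and 3.44 and 9.11 on day 3, a change of -2.62 ± 0.39 (SE, adjusted p = 5.17e-05). Lrig1, a feedback inhibitor of ERBB receptors and a stem cell marker, fell by 1.81 ± 0.37 (SE, adjusted p = 0.00138). Pthlh, the parathyroid hormone-related peptide, fell by 2.22 ± 0.38 (SE, adjusted p = 0.000234).

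Enterocyte genes as a list were higher on day 3 than on day 2. They summed to 2726 and 3579 CPM on day 1, 3781 and 5081 on day 2 and 22310.4 and 20519 on day 3. Both plates of day 3 stood far above the other 4, and the list's first plate of day 2 lay just above the second of day 1. Of 21 members tested 15 rose over both days and none fell, with a median of 1.27. On day 2 alone 3 were above day 1, and 12 were higher on day 3 than on day 2 (all genes, 1.57% higher). Sis, the sucrase-isomaltase of the brush border, was at 348 and 481 CPM on day 1, 584 and 660.3 on day 2 and 5468 and 4854 on day 3, a difference of day 3 from day 2 of 3.05 ± 0.38 (SE, adjusted p = 4.33e-05). Days 1 and 2 were close, and day 3 stood apart in both plates. Slc2a5, the fructose transporter, was at 3.13 and 3.66 CPM on day 1, 2.33 and 12.9 on day 2 and 127 and 167 on day 3, a difference between days 3 and 2 of 3.98 ± 0.56 (SE, adjusted p = 0.000284). Alpi, the alkaline phosphatase of the brush border, was at 145 and 185 CPM on day 1, 242 and 220.1 on day 2 and 609 and 649.6 on day 3, a difference of 1.45 ± 0.24 (SE, adjusted p = 0.00125). Krt20, a keratin of differentiated cells, rose by 1.27 ± 0.22 (SE, adjusted p = 0.000336) over both days. Fabp1 and Fabp2, fatty acid binding proteins, and Cdx1 did not pass, and Fabp1 overlapped between days with 34.9 to 231 CPM.

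Genes of lipid export followed the same days. Apoa1, Apoa4 and Apoc3, apolipoproteins of chylomicrons, were 2.37 to 3.16 higher on the log2 scale on day 3 than on day 2. Apoa1 was at 132 and 157 CPM on day 1, 228 and 472 on day 2 and 1659 and 2016 on day 3, Apoa4 at 36.5 to 64.7 CPM on days 1 and 2 and 386 to 396 on day 3, and Apoc3 at 7.30 to 42.4 and 296 to 346. The values of Apoc3 from day 3 against day 2 were 3.16 ± 0.38 (SE, adjusted p = 4.33e-05), those of Apoa4 2.65 ± 0.36 (SE, adjusted p = 0.000108) and those of Apoa1 2.37 ± 0.38 (SE, adjusted p = 0.000746). In contrast, Npc1l1, the cholesterol importer of the brush border, was already high on day 2, at 46.9 and 43.9 CPM on day 1, 169.9 and 193 on day 2 and 344 and 331 on day 3. Its change over both days was 2.43 ± 0.23 (SE, adjusted p = 1.17e-07). Slc51a, a subunit of the basolateral bile acid exporter, was at 5.22 and 5.49 CPM on day 1, 23.3 and 44.7 on day 2 and 99.8 and 127 on day 3, a change of 3.51 ± 0.53 (SE, adjusted p = 5.61e-05). Creb3l3, a factor of the endoplasmic reticulum that drives apolipoprotein genes, was at 125 and 159 CPM on day 1, 191 and 213 on day 2 and 540.3 and 486 on day 3, a difference of day 3 from day 2 of 1.34 ± 0.23 (SE, adjusted p = 0.00173). Of 14 tested lipid absorption genes 7 rose and none fell. Among 18 tested genes of fatty acid synthesis and oxidation 4 rose and none fell. Scd1, the stearoyl-CoA desaturase, rose by 1.7 ± 0.20 (SE, adjusted p = 2.66e-06). Of 21 tested cholesterol synthesis genes 4 rose, with a list median of 0.41, and 0 did without either plate of day 1 or without the second plate of day 3.

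**Figure D3:**
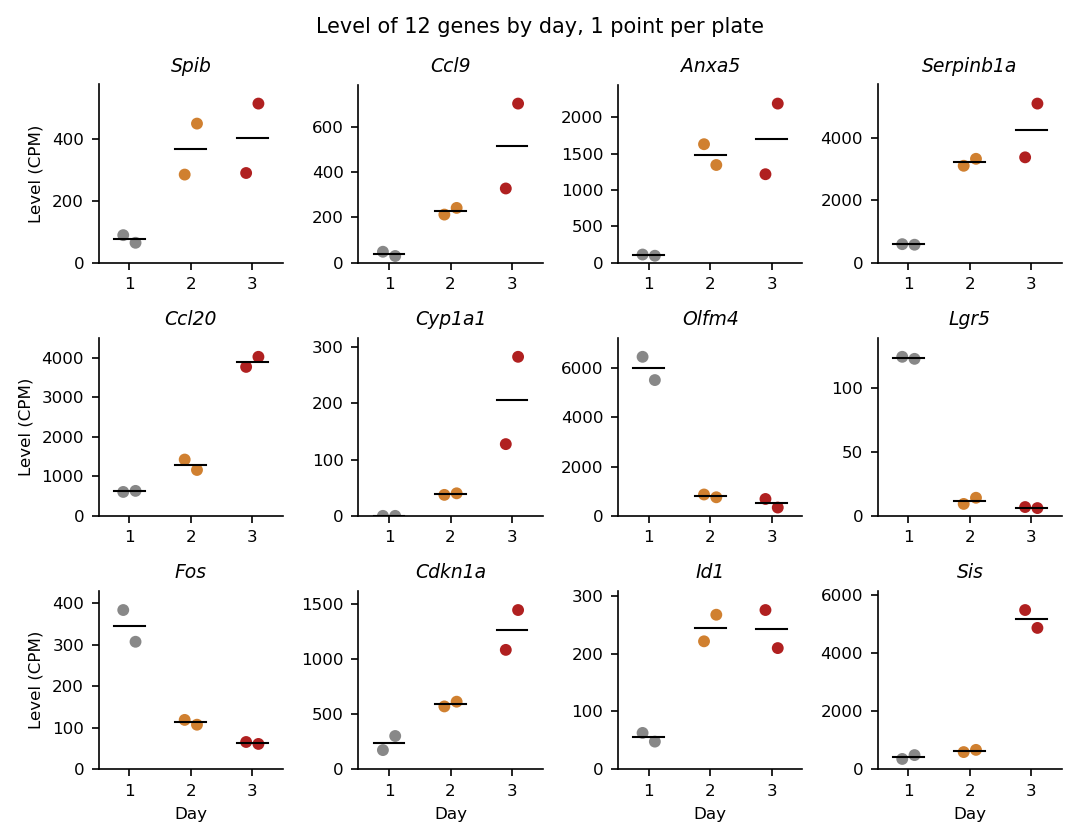
Level of 12 genes (y axes, CPM from 0) on days 1, 2 and 3 of RANKL+CSRM617, 1 point per plate with a bar at the mean of the day. Serpinb1a, Anxa5 and Id1 were above day 1 in both plates of day 2, while Sis stayed low until day 3.

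The Paneth cell and antimicrobial list had 5 of 11 tested members higher (Mmp7, Reg1, Reg3a, Reg3b and Reg3g), of which Reg3g kept its call under every alternative and Reg1, Reg3a and Reg3b did not. Reg3g, a lectin that kills Gram-positive bacteria, was at 1572 and 2244 CPM on day 1, 5001 and 3610.00 on day 2 and 11605 and 11671 on day 3, a change of 1.89 ± 0.39 (SE, adjusted p = 0.00144). Lyz1, the Paneth cell lysozyme, had 30.3 to 582 CPM with the days overlapping and did not pass. Goblet cell genes rose in 2 of 10 and tuft cell genes in 3 of 6, and of 5 enteroendocrine genes 1 fell, none of these calls holding under every alternative. Muc2, the mucin of goblet cells, was at 42.8 and 12.8 CPM on day 1, 142 and 74.2 on day 2 and 114 and 149 on day 3, a difference that missed the threshold at 1.93 ± 0.67 (SE, adjusted p = 0.0529). Chga, the marker of enteroendocrine cells, was at or near 0 throughout, with no plate above 5.89 CPM.

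Of 10 tested genes of the Id family and BMP signalling 5 rose and none fell, with a median of 1.75, and 5 passed on day 2 alone. Id1, an inhibitor of bHLH factors that BMP induces, was at 62.6 and 47.6 CPM on day 1, 221 and 267 on day 2 and 275 and 209 on day 3, a change of 2.11 ± 0.24 (SE, adjusted p = 1.76e-06), with days 2 and 3 overlapping. Id2, of the same family, was at 166 and 194 CPM on day 1, 461 and 417 on day 2 and 857 and 977 on day 3, a change of 1.82 ± 0.28 (SE, adjusted p = 6.47e-05). Bmp2, a ligand made by differentiated epithelium, was at 67.8 and 54.9 CPM on day 1, 219 and 187 on day 2 and 234 and 379 on day 3, a change of 2.0 ± 0.25 (SE, adjusted p = 4.3e-06). The receptors Bmpr1a and Bmpr2 and the signal-carrying Smad1 and Smad5 did not pass. Tgif1, a homeobox repressor that limits TGF-beta signalling, fell by 2.17 ± 0.24 (SE, adjusted p = 8.68e-07). Hes1, the Notch target that keeps progenitors from secretory fates, was at 212 and 192 CPM on day 1, 79.2 and 104 on day 2 and 44.7 and 69.8 on day 3, a change of -1.46 ± 0.23 (SE, adjusted p = 0.000107). Sox4, a factor of secretory progenitors, fell by 1.05 ± 0.22 (SE, adjusted p = 0.00191).

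Enzymes of detoxification changed in both directions, 7 of 23 higher and 2 lower. Cyp1a1, the monooxygenase that is the classic target of the aryl hydrocarbon receptor, had 0 UMIs in the 415 cells of day 1 and 180 on the later days. Its level was 0 and 0 CPM on day 1, 37.2 and 40 on day 2 and 127 and 282 on day 3, at least 47.6-fold higher than 3 counts on day 1 would give, and its change passed the test (adjusted p = 4.43e-06). The second plate of day 3 was the highest. Ahr, the receptor itself, chosen after its values were seen, was at 50.1 and 60.4 CPM on day 1, 151 and 132 on day 2 and 224 and 203 on day 3, a change of 1.66 ± 0.23 (SE, adjusted p = 2.18e-05). Gclc, the catalytic subunit of glutathione synthesis, was at 283 and 192 CPM on day 1, 612 and 596 on day 2 and 743 and 844 on day 3, a change of 1.53 ± 0.22 (SE, adjusted p = 2.88e-05). Adh1, an alcohol dehydrogenase, rose by 2.49 ± 0.26 (SE, adjusted p = 5.44e-07), and Aldh1b1, a mitochondrial aldehyde dehydrogenase of crypt progenitors, fell by 1.9 ± 0.21 (SE, adjusted p = 1.21e-06). Of 20 tested glycolysis and hypoxia genes 8 rose and none fell, with a median of 0.54. Vegfa, the angiogenic factor, was at 66.8 and 54.9 CPM on day 1, 209.5 and 175 on day 2 and 317 and 386 on day 3, a change of 2.07 ± 0.21 (SE, adjusted p = 3.56e-07). Egln3, a prolyl hydroxylase that hypoxia induces, rose by 1.69 ± 0.23 (SE, adjusted p = 1.58e-05), Hk1, a hexokinase, by 1.83 ± 0.33 (SE, adjusted p = 0.000471) and Pfkp, a phosphofructokinase, by 1.34 ± 0.22 (SE, adjusted p = 0.000135).

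The interferon, MHC class I and stress response lists had few calls (all genes, 15.9% either way). Of 9 tested interferon response genes 0 rose and 1 fell, and of 8 MHC class I and antigen processing genes 1 rose. Of 21 tested genes of the unfolded protein and stress response 0 rose and 2 fell, with a median of −0.18. Keratins and claudins had 2 of 17 higher and 3 lower (all genes, 8.14% higher and 7.74% lower). Cldn2, the pore-forming claudin of crypts, was at 304 and 316 CPM on day 1, 100.1 and 121 on day 2 and 61.9 and 48.6 on day 3, a change of -1.98 ± 0.19 (SE, adjusted p = 1.31e-07). Of 19 lineage transcription factors 6 rose and 3 fell, a larger share each way than over all genes.

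Among called genes with a mean of 5 or more log2 CPM and no overlap between plates of day 1 and later plates, which were 798 (12.3% of those tested), the largest changes lay partly outside the lists. Rac2 is a small GTPase best known from blood cells. It was at 5.22 and 1.83 CPM on day 1, 114 and 102 on day 2 and 120.5 and 301 on day 3. The change was 5.15 ± 0.50 (SE, adjusted p = 2.44e-07). Of the 18 immune markers only 1 could be read, as given above, and whether immune cells carried Rac2 was not tested. Eno3, the enolase of muscle, rose by 4.93 ± 0.52 (SE, adjusted p = 5.44e-07). Pglyrp2, an amidase that cleaves bacterial peptidoglycan, was at 4.17 and 3.66 CPM on day 1, 39.6 and 63.6 on day 2 and 227 and 249 on day 3, a change of 4.72 ± 0.56 (SE, adjusted p = 2.77e-06). Mfge8, a secreted protein that bridges dying cells to phagocytes, rose by 3.46 ± 0.34 (SE, adjusted p = 2.44e-07). Slc26a2, a sulfate transporter, was at 36.5 and 53 CPM on day 1, 559 and 413 on day 2 and 516 and 407 on day 3, a change of 3.43 ± 0.26 (SE, adjusted p = 3.51e-09), with days 2 and 3 overlapping. Rasd1, a Ras-related GTPase, rose by 3.48 ± 0.48 (SE, adjusted p = 1.97e-05). Among falls, Cps1, the carbamoyl phosphate synthetase of the urea cycle, was at 1043 and 1015 CPM on day 1, 163 and 175 on day 2 and 99.8 and 100.2 on day 3. The plates of each day were close, and the change was -2.98 ± 0.19 (SE, adjusted p = 6.93e-10). Slc16a12, a transporter of the monocarboxylate family, fell by 2.79 ± 0.29 (SE, adjusted p = 3.46e-07), Aqp4, a water channel, fell by 2.32 ± 0.26 (SE, adjusted p = 1.05e-06) and Maged1, of the MAGE family, fell by 2.0 ± 0.36 (SE, adjusted p = 0.000469).

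Shares of cells with a UMI were compared after each kept cell was thinned to 1000 UMIs, which left out none. With 4 plates against 2, an exact 2-sided permutation test over the 15 arrangements cannot go below p = 0.133, and this was the value for each share given here unless another is printed. Spib was seen in 9.42 and 2.60% on day 1, 17.4 and 26.9 on day 2 and 19.6 and 31.1 on day 3. Without thinning the shares were 19.3 and 12% on day 1, 30.3 and 49.2 on day 2 and 32.6 and 48.5 on day 3, in the same order of days. Onecut2 was seen in 43 and 45.8% on day 1, 57.9 and 58.4 on day 2 and 68.5 and 67 on day 3. Both plates of each day were close, and day 3 was the highest. Olfm4 was seen in 64.1 and 57.8% on day 1, 31.5 and 29.9 on day 2 and 9.78 and 11.7 on day 3, with both plates of day 3 below those of day 2. Lgr5 was seen in 43 of 415 cells of day 1 and in 5 of 570 later, or in 115 and 13 without thinning. Mki67 was seen in 16.1 and 19.8% on day 1, 10.1 and 7.61 on day 2 and 12 and 7.77 on day 3. Shares of Tnfrsf11a, Alpi and Apoa4 had the same p, the lowest possible. Their means were 14.2% on day 1 and 18.4% later, 8.91% and 24.7%, and 2.20% and 13.6%. Muc2 went from a mean of 1.64% to 3.90% (exact permutation p = 0.267), Lyz1 from 7.95% to 3.16% (exact permutation p = 0.267) and Chga from 0.673% to 0.243% (exact permutation p = 0.667). The next 4 genes were chosen after the data were seen. Serpinb1a was seen in 37.2 and 30.7% on day 1, 69.1 and 64.5 on day 2 and 53.3 and 61.2 on day 3, and Ccl20 in 38.1 and 32.3% on day 1, 50.6 and 49.2 on day 2 and 59.8 and 58.3 on day 3. Sis was seen in 11.2 to 12.5% on day 1, 17.4 to 22.8% on day 2 and 59.2 to 63.0% on day 3. Both plates of day 3 lay above those of day 2. Cyp1a1 was seen in 0 of 415 cells of day 1, which allows a share of cells with a UMI at this depth of up to 0.723%, for counting error over the pooled cells only, and in 23 of 570 later cells, 12.6% on the second plate of day 3 and 0.508% to 4.35% on the others. Without thinning, the mean shares of day 1 and of the later plates were 75.5% and 85.5% for Onecut2, 78.4% and 32.9% for Olfm4, 33.9% and 18% for Mki67, 54.5% and 78.7% for Serpinb1a, 56.6% and 72.6% for Ccl20, 20.4% and 50.5% for Sis and 0% and 10.9% for Cyp1a1. For Tnfrsf11a they were 39.4% and 43.9%, with plates of day 1 and later plates overlapping (exact permutation p = 0.533). Each mean kept its direction.

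**Figure D4:**
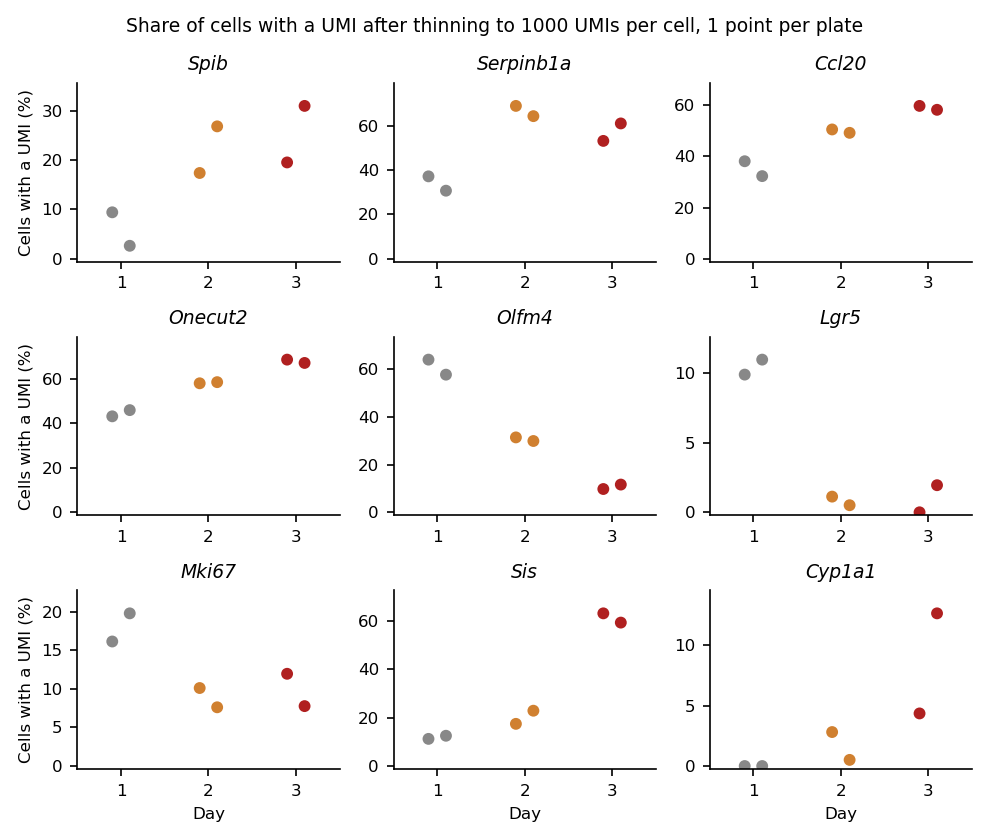
Share of cells with at least 1 UMI of 9 genes (y axes, percent) after thinning to 1000 UMIs per cell, on days 1, 2 and 3 of RANKL+CSRM617, 1 point per plate. Spib, Serpinb1a, Ccl20 and Onecut2 were higher in all 4 later plates, Olfm4, Lgr5 and Mki67 lower, and Sis was highest on day 3.

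In the same thinned cells, genes of different programs could be read together. These values pool the 2 plates of a day and are a description, since cells of a plate are not replicates. On day 3, 44 of 50 cells with Spib also had Serpinb1a (88%), against 46.9% of the other cells, and 40 had Ccl20 (80%), against 51.7%. On day 1, 18 of 26 cells with Spib also had Olfm4 (69.2%, others 60.7%), while on day 3 it was 2 of 50 (4%, others 13.1%). Mki67 was in 3 of the 84 cells with Spib on day 2 (3.6%), against 10.3% of the others. Of the 17 cells with Cyp1a1 on day 3, 5 had Spib.

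The same change was then read in the RANKL arm, which shares no plate with those above. Its change from day 1 to days 2 and 3 called 865 of 8766 genes tested in both arms (9.87%, 5.13% higher and 4.73% lower). Of the 1032 genes called with the inhibitor, 924 had a change of the same sign in the RANKL arm (89.5%), against 69.4% of all 6499 genes, and 394 passed there in the same direction and 2 in the opposite one. The difference between the arms in this change, tested as an interaction, passed for 270 genes (3.08%), 182 more positive with the inhibitor (2.08%) and 88 more negative (1%). It takes out what an arm shares over its days, and arms were separate libraries. Without the first or second plate of day 1 with the inhibitor the count was 87 or 146, and without the second plate of day 3 it was 162.

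M cell genes differed between the arms in this change. Of the 11 tested 10 had a more positive change with the inhibitor, with a median difference of 1.74 against 0.01 over all genes, while 6 rose in the RANKL arm. On a scale common to both arms, Spib was at 318, 198 and 226 CPM on day 1, 172, 214 and 142 on day 2 and 156, 195 and 127 on day 3 without the inhibitor, and at 92 and 67.3 CPM on day 1, 308 and 480.2 on day 2 and 316 and 566 on day 3 with it. The 3 plates of day 1 with RANKL alone were above both of day 1 with the inhibitor, and those of days 2 and 3 below all 4. The levels of a day were not tested between arms, and the difference in log2 fold change was 2.94 ± 0.39 (SE, adjusted p = 7.23e-06). Anxa5 was at 434, 431 and 502 CPM on day 1, 1052, 1166 and 1106 on day 2 and 837, 874 and 689.8 on day 3 with RANKL alone, and the plates of days 2 and 3 were above those of day 1 there too, with a difference between arms of 2.95 ± 0.26 (SE, adjusted p = 1.17e-09). Serpinb1a was at 1725, 1668 and 1529 CPM on day 1, 1552, 1917 and 1741 on day 2 and 1118, 1190.1 and 849 on day 3 with RANKL alone, which gave a difference of 3.0 ± 0.29 (SE, adjusted p = 1.2e-08). The difference for Adgrd1 was 5.37 ± 1.01 (SE, adjusted p = 0.00125) and that for Rac2 4.65 ± 0.60 (SE, adjusted p = 4.41e-06), both from few UMIs on day 1 with the inhibitor, so that their size depends on the prior count.

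**Figure D5:**
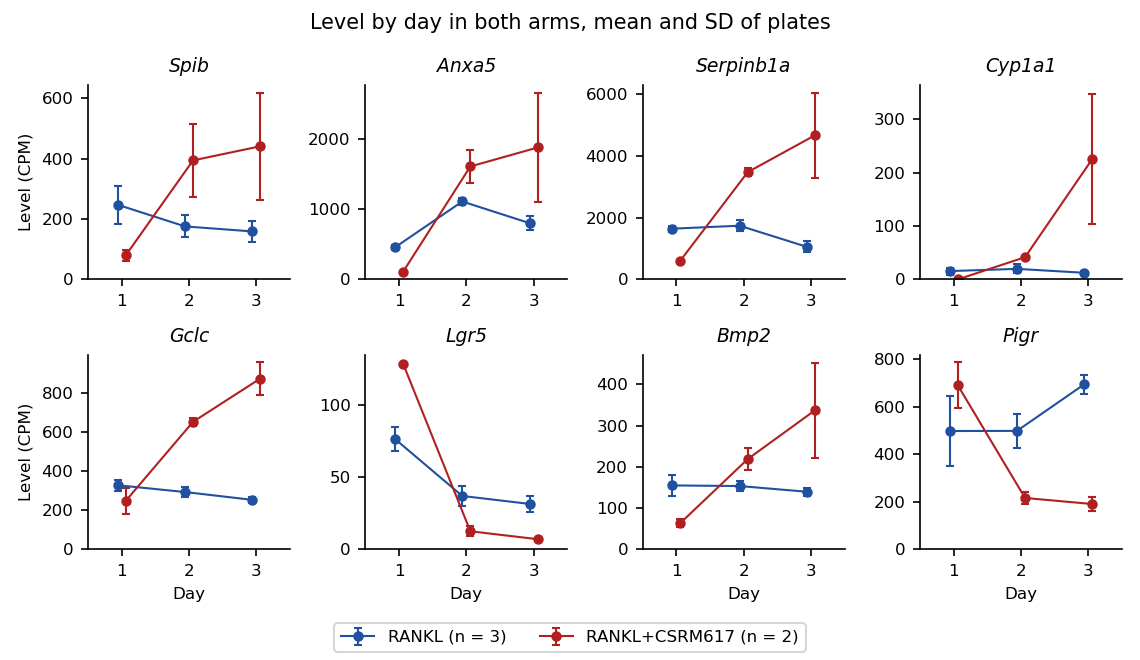
Level of 8 genes (y axes, CPM on a scale common to both arms) on days 1, 2 and 3, as mean and SD of 3 RANKL plates (blue) and 2 RANKL+CSRM617 plates (red). Spib, Anxa5 and Serpinb1a were lower with the inhibitor on day 1 and higher on days 2 and 3, Lgr5 crossed the other way, and the means of Cyp1a1 and Gclc rose from day to day with the inhibitor.

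Some enterocyte, Id and BMP genes also had a more positive change with the inhibitor. The enterocyte list had 9 of 21 members with a more positive change, and 1 rose and 3 fell in the RANKL arm. Npc1l1 differed by 2.04 ± 0.31 (SE, adjusted p = 6.53e-05). The Id and BMP list had 5 of 10, and 0 passed in the RANKL arm. Bmp2 was at 184, 147 and 134 CPM on day 1, 149, 145 and 167 on day 2 and 149, 129.7 and 141 on day 3 without the inhibitor, and the difference was 2.14 ± 0.31 (SE, adjusted p = 2.67e-05). Id1 differed by 1.86 ± 0.25 (SE, adjusted p = 7.23e-06) and Id2 by 1.48 ± 0.26 (SE, adjusted p = 0.000458). Few cell cycle genes passed this test. Of the S phase genes 15 of 22 fell in the RANKL arm and 0 passed the test of the difference, and of the mitosis genes 10 of 27 fell there and 1 passed. Both lists still leaned to a more negative change with the inhibitor. Their median differences were −0.45 for S phase and −0.64 for mitosis, against 0.01 over all genes. Crypt stem cell genes had 7 of 15 with a more negative change with the inhibitor. Lgr5 was at 71.7, 86.4 and 71.6 CPM on day 1, 41.4, 29.3 and 40.5 on day 2 and 37.3, 26.1 and 31.3 on day 3 with RANKL alone, a difference of -2.55 ± 0.34 (SE, adjusted p = 5.96e-06), and Smoc2 differed by -1.68 ± 0.25 (SE, adjusted p = 4.92e-05).

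Genes of detoxification differed too. Cyp1a1 was at 16.1, 21.8 and 8.94 CPM on day 1, 11.2, 20.6 and 27.7 on day 2 and 15.3, 8.44 and 13.6 on day 3 with RANKL alone and with the inhibitor at 0 and 0 CPM on day 1, 40.4 and 42.9 on day 2 and 139 and 312 on day 3. The test of the difference gave an adjusted p of 0.00034. Gclc was at 353, 299 and 332 CPM on day 1, 309.6, 309 and 261 on day 2 and 259.6, 264 and 236 on day 3 with RANKL alone, a difference of 1.86 ± 0.26 (SE, adjusted p = 1.81e-05). Cdkn1a differed by 1.91 ± 0.32 (SE, adjusted p = 0.000324), Mxd1 by 2.62 ± 0.41 (SE, adjusted p = 8.48e-05) and Slc26a2 by 2.0 ± 0.29 (SE, adjusted p = 2.19e-05). Changes more negative with the inhibitor were those of Pigr at -2.0 ± 0.26 (SE, adjusted p = 4.41e-06), Tgif1 at -1.82 ± 0.35 (SE, adjusted p = 0.00125), Cldn2 at -1.44 ± 0.26 (SE, adjusted p = 0.000724) and Hes1 at -1.3 ± 0.26 (SE, adjusted p = 0.00215). Another 3 genes lost their call in places. Slc16a12 differed by -2.0 ± 0.32 (SE, adjusted p = 0.00011), lost with cells thinned to equal weight (adjusted p = 0.152), Maged1 by -1.72 ± 0.36 (SE, adjusted p = 0.004), lost there and without the first plate of day 1 with the inhibitor (adjusted p = 0.054), and Pcyox1l by -1.75 ± 0.40 (SE, adjusted p = 0.0077), lost without that plate (adjusted p = 0.186). Every other gene named in this comparison passed under each alternative.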

How the data were processed

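UMI counts per gene and well of the RANKL+CSRM617 arm were used as deposited by the authors, and those of the RANKL arm for the difference between arms. Per the labels' protocols, cells were sorted into 384-well plates and sequenced by a modified CEL-Seq2, which counts 3′ ends. The submitters' processing notes name kallisto, bustools, Seurat 3.1.5 and GRCm38. The table holds 9257 genes and no mitochondrial or spike-in rows, so a check of RNA quality from these was not possible.

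Wells with 1000 or more UMIs were summed per plate. The 14 plates of the arm were fitted with edgeR 4.0.16 (quasi-likelihood test, TMM, filterByExpr by day, R 4.3.3), 1 coefficient per day. The contrast was the mean of days 2 and 3 minus day 1, with Benjamini-Hochberg adjusted p under 0.05 as the threshold in every comparison. Errors (SE) were derived from the same fit, as the absolute log2 fold change over the square root of the test's F statistic. For genes with few UMIs they depend on the prior count. For the arms, 8766 genes tested in both tables were fitted over days 0 to 6. The fit was tested on simulated data. No doublet caller was run, and 5 cells had over 3 times their plate's median UMIs. Plates were not paired by replicate number in the main fit.

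Members and gene lists were chosen with earlier results of these data known. Genes named were the 12 largest rises and 12 largest falls among those called with a mean of 5 or more log2 CPM and no overlap, up to 4 called members per list with the largest change, the 5 largest each way for day 3 against day 2 and for the arms, and genes of the pathway. Ahr, Ccnb2, Cdk1, genes for shares of cells and list members that did not pass were added after their values were seen. A few genes that the rule names are not reported here. Alternatives were DESeq2 1.42.0, RLE size factors, no filter, other minimums of UMIs, thinned cells, blocks and leaving out each plate.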

Additional observations from a re-analysis of the deposited data

Results flagged for a closer look

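The change from day 1 to days 2 and 3 differed between the arms, by a test of the difference itself, for 270 genes. The following are differences in log2 fold change, RANKL+CSRM617 minus RANKL, each past edgeR's adjusted threshold. M cell genes were more positive with the inhibitor, by 2.94 for Spib, 2.95 for Anxa5, 3.0 for Serpinb1a and 5.37 for Adgrd1. Adgrd1 and Cyp1a1, at 9.26, had 2 and 0 UMIs on day 1 with the inhibitor, so their size depends on the prior count. The same limit holds for Rac2, at 4.65, which also had few UMIs on day 1 with the inhibitor. Other genes more positive with the inhibitor were Mxd1 at 2.62, Bmp2 at 2.14, Npc1l1 at 2.04, Slc26a2 at 2.0, Cdkn1a at 1.91, Id1 at 1.86, Gclc at 1.86 and Id2 at 1.48. Stem cell genes were more negative with it, Lgr5 by -2.55 and Smoc2 by -1.68. So were Pigr at -2.0, Slc16a12 at -2.0, Tgif1 at -1.82, Pcyox1l at -1.75, Maged1 at -1.72, Cldn2 at -1.44 and Hes1 at -1.30.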

How the results depend on the processing

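Of the 1032 genes called for days 2 and 3 against day 1, 0 changed sign under any alternative that tested them. Counts below are in the order days 2 and 3, day 2 and day 3 against day 1, day 3 against day 2, and the difference between arms. DESeq2 gave 667 genes for days 2 and 3 and 213 for day 2. It called 61.3% of its genes higher in the former, against 51.3% in edgeR's test. Cells thinned to equal weight gave 391, 145, 422, 58 and 91, with fewer genes tested. The library name suffix as a block gave 188 for day 3 against day 2. Leaving out 1 plate gave 390 to 974, 119 to 372, 447 to 1087, 30 to 99 and 87 to 277. The replicate block gave 896, 296, 945, 88 and 210. Deviations of plates with the same number correlated at −0.283 for days 1 and 2 and −0.151 for days 1 and 3. For days 2 and 3 the correlation was 0.088. On days 2 and 3 the first plates had a library name suffix that no plate of day 1 had. The second plates had that of the first plate of day 1, so suffix and day were partly confounded. The main fit did not pair plates by number. With the numbers of day 1 crossed in the replicate block, chosen after seeing the data, day 2 gave 325 and day 3 gave 994. Depth and 2 plates a day limit the calls of weakly expressed genes. Of 132 genes named by the rule or added after their values were seen, 73 kept their call against day 1 under every alternative, as did 11 of 30 between days 3 and 2 and 20 of 57 between arms.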
